A study of Mus musculus with 6 samples.

Results

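The 3 reference sequences of cytosolic tRNA-His with the anticodon GTG, named His-GTG-1, His-GTG-2 and His-GTG-3, were described across 6 libraries of mouse brain small RNA. They were every reference whose name begins with His-GTG and 3 of the 190 references listed over all libraries. Total brain RNA was compared between 3 wild-type samples (WT) and 3 samples lacking TRMT1L (KO), described by the series as biological replicates. The RNA had been depleted of ribosomal RNA and selected for sizes of 30 to 150 bp. Strain, age, sex and the knockout allele are not given in the sources used here, so WT and KO are all that defines the groups. The tables hold tRNA references only, so neither the genotype nor the tissue label was checked against marker transcripts.

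tRNA-His is the one cytosolic tRNA of mammals that receives an extra guanosine in front of its encoded first base. The enzyme THG1L adds it after transcription, and histidyl-tRNA synthetase uses it to recognise its tRNA. The first anticodon base, a guanosine, can be exchanged for queuosine, and the guanosine that follows the anticodon is known to carry a methyl group. Cleavage of tRNAs in the anticodon loop gives 5′ and 3′ fragments, and tRNA-His is a known source of 5′ fragments. TRMT1L is related to TRMT1, which methylates a guanosine at position 26 of many tRNAs. The His-GTG references have T at position 26 and C at position 27, so neither base is a guanosine.

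The full sequence of His-GTG-2 is shown first because nearly all His-GTG reads lay on it, with the anticodon in capitals at positions 34 to 36. It starts at position 1 with the encoded guanosine, so the extra guanosine has no position of its own and can be listed only as an insertion. A read may also hold it without its being listed, so the insertion percentage need not count every added base.
His-GTG-2: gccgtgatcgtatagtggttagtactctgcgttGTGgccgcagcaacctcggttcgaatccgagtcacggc
The first 34 bases of the 2 full-length references follow, with position 16 in capitals, because this base alone tells them apart.
His-GTG-2: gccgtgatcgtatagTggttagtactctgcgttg
His-GTG-3: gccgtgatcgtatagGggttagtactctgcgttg

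Over the 71 positions the difference between His-GTG-2 and His-GTG-3 was T16G, counted from the first listed base. His-GTG-1 was listed only from position 6 to 30 and was identical to His-GTG-2 over those 25 bases. In the acceptor stem, all 7 bases at positions 1 to 7 formed Watson-Crick pairs with positions 71 to 65. The mouse RefSeq annotation of assembly GRCm38.p6 holds 10 genes for this tRNA, each 72 bases long. No coordinates are given because the build of the references is not given in the sources used here.

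Summed over all positions, the 6 libraries held 6151209 to 6295061 base calls in WT and 7981301 to 8797395 in KO. A position with fewer than 30 reads was not listed, and coverage stopped near 8000 reads, with 8032 as the highest value. His-GTG-2 reached this depth limit at 11 positions (5 to 15) in WT 3 and in KO 3, at 3 positions in KO 2, at 2 positions in KO 1 and at none in WT 1 and WT 2. Its values near the 5′ end are therefore lower bounds of the read number in those 4 libraries. Coverage further along, to which the same reads run, may be lowered there too. No pair of His-GTG references had identical counts throughout, so all 3 were kept. From position 19 on, however, His-GTG-2 and His-GTG-3 listed the same stop count at nearly every shared position (36 of 36 in KO 3 and 25 of 26 in WT 1), so they share reads there and are not independent.

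The 5′ end of His-GTG-2 differed between libraries in how reads were listed at position 1. An extra base was listed in most reads of WT 1 and WT 3 and in few reads of WT 2 and the KO libraries. Coverage at position 1 was 4489, 990 and 7035 reads in WT 1, WT 2 and WT 3 and 1274, 1406 and 2008 in KO 1, KO 2 and KO 3. Of these reads, 3541, 46 and 5274 carried an insertion in WT and 85, 68 and 87 in KO. The insertion percentage was thus 78.9, 4.65 and 75.0% in WT and 6.67, 4.84 and 4.33% in KO. WT 2 lay inside the range of the KO libraries, so the groups overlapped. The Wilson 95% interval was 77.7 to 80.1% in WT 1 and 3.501 to 6.14% in WT 2. These intervals cover counting error only and not the spread between libraries.

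The inserted base was a guanosine in 3512 reads of WT 1 and 5227 reads of WT 3, which is 99.2 and 99.1% of the insertions. In WT 2, KO 1, KO 2 and KO 3 an inserted guanosine was listed in 24, 58, 38 and 52 reads. Inserted thymidines were few in every library, with 29, 22 and 47 in WT and 27, 30 and 34 in KO, and KO 3 had 1 inserted adenosine. As a share of position 1 coverage, inserted thymidines were 0.646, 2.22 and 0.668% in WT and 2.12, 2.13 and 1.69% in KO, lower in WT 1 and WT 3, where that coverage was highest. On the other cytosolic references listed at position 1 with at least 100 reads (47 to 71 per library), the highest insertion percentage was 1.19%, on Leu-CAG-1 in WT 2.

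The WT mean was 52.8 ± 41.8% (SD, n = 3) and the KO mean 5.28 ± 1.23% (SD, n = 3), a difference of -47.6 percentage points. A quasi-binomial test with its spread moderated across all insertion sites gave an unadjusted p of 0.00203 and an adjusted p of 0.0710, and the site was not called. An exact two-sided permutation test of the 3 against 3 percentages gave p = 0.3, where 0.1 is the smallest p possible. None of the 35 insertion sites tested in the whole table passed an adjusted p of 0.05, a background of 0%, and 3 (8.57%) had an unadjusted p under 0.05. The outcome of this test depended on WT 2. With WT 2 left out, this 1 site passed and the difference was -71.6 percentage points.

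Reads missing from position 1 ran opposite to the listed insertions. At position 2 the coverage was 5203, 5180 and 7935 in WT and 6721, 6844 and 7997 in KO. Reads starting at position 2 numbered 682, 790 and 828 in WT and 1209, 1113 and 1 in KO, the last at a coverage of 7997, close to the depth limit. Subtracting these and the coverage at position 1 left 32, 3400 and 72 reads in WT and 4238, 4325 and 5988 in KO that covered position 2 but were neither listed at position 1 nor began at position 2. These uncounted reads were 0.615, 65.6 and 0.907% of position 2 in WT and 63.1, 63.2 and 74.9% in KO. The same quantity on the other cytosolic references had a median of 0% in each library and ranged from -4.05 to 6.59%, so WT 2 and the KO libraries were outside it and WT 1 and WT 3 inside.

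Where the listed insertions were few, the uncounted reads were many. Inserted and uncounted reads together were 3573, 3446 and 5346 in WT and 4323, 4393 and 6075 in KO. Uncounted reads were then taken to reach position 1, which the counts do not show. Of all reads reaching position 1 on that assumption, inserted and uncounted reads together made up 79.0, 78.5 and 75.2% in WT and 78.4, 76.7 and 76.0% in KO. The WT mean of 77.6 ± 2.06% and the KO mean of 77.0 ± 1.27% (SD, n = 3 each) differed by -0.56 points, less than the spread within either group (exact two-sided permutation p = 0.8, adjusted over 5 such tests 1). Over the coverage at position 2, the same sum was 68.7, 66.5 and 67.4% in WT and 64.3, 64.2 and 76.0% in KO. On that scale KO 1 and KO 2 lay below all WT values and KO 3, near the depth limit, above them. Without KO 3 the difference was -3.27 points (exact two-sided permutation p = 0.1). This sum was formed after the counts were seen. What the uncounted reads carry at their first base is not listed, and whether they hold the extra guanosine was not tested. Reads listed at position 1 with no extra base were 948, 944 and 1761 in WT and 1189, 1338 and 1921 in KO. They made up 18.2, 18.2 and 22.2% of position 2 in WT and 17.7, 19.5 and 24.0% in KO, and the groups overlapped.

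**Figure D1:**
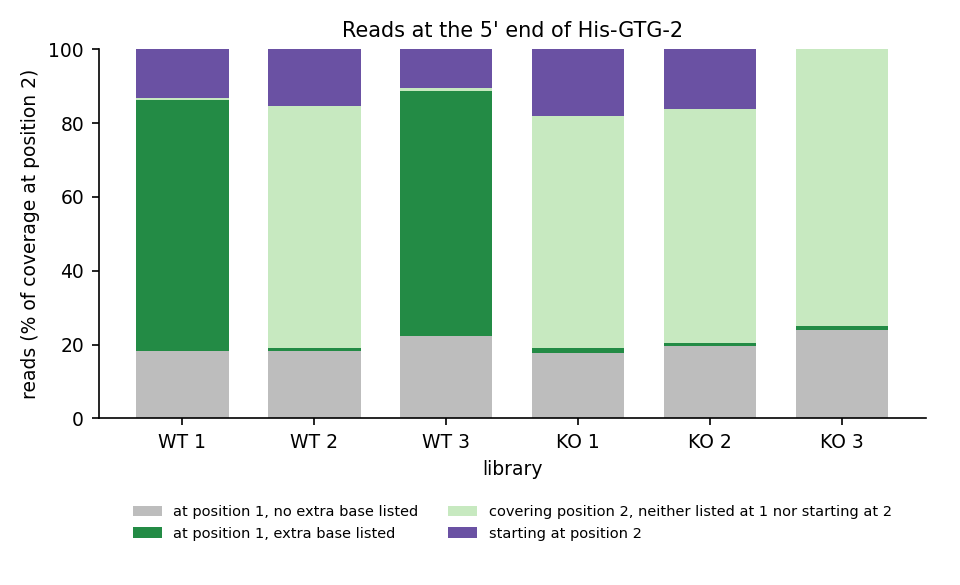
Reads of His-GTG-2 at its 5′ end in each of the 6 libraries (x axis), as a percentage of the coverage at position 2 (y axis, stacked bars). Reads with a listed extra base fill most of the bar in WT 1 and WT 3, where uncounted reads are under 1%, and uncounted reads fill 63.1 to 74.9% in WT 2 and the KO libraries.

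Base quality at position 1 was low where the listed insertions were many. The mean quality score of His-GTG-2 there was 19.8, 33.03 and 20.6 in WT 1, WT 2 and WT 3 and 32.8, 33.2 and 33.4 in KO 1, KO 2 and KO 3. The median score was 16 in WT 1 and WT 3 and 36 in the other libraries. No other cytosolic reference with at least 100 reads had a median score under 29 at position 1, and no mean score was under 28.9. At position 2 the mean score of His-GTG-2 lay between 31.99 and 32.2 in all 6 libraries, and at position 3 between 36.51 and 36.99, so the libraries parted at position 1 and not at the next 2. The part of base quality in the listed insertions was not tested.

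**Figure D2:**
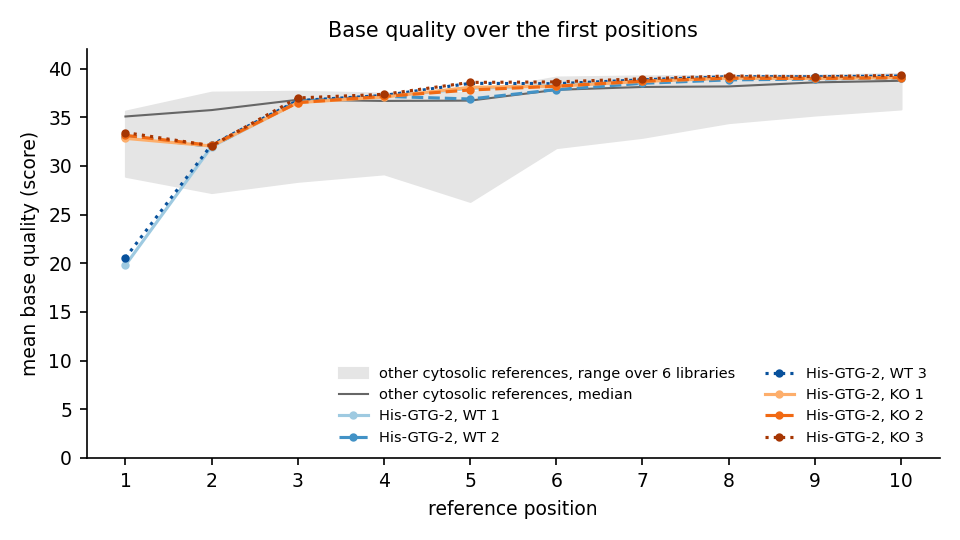
Mean base quality score (y axis) at the first reference positions (x axis) of His-GTG-2, one line per library, against the range (grey area) and median (grey line) of other cytosolic references with at least 100 reads. At position 1 WT 1 and WT 3 lie at 19.8 and 20.6, below the grey area, and the other 4 libraries lie within it at 32.8 to 33.4.

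The listed calls of the encoded bases read as the reference. Position 1 was called G in each of the 4489, 990, 7035, 1274, 1406 and 2008 reads, and positions 2 and 3 had 0 mismatches in every library. On the other cytosolic references with at least 100 reads, the highest mismatch at position 1 was also 0% in every library. It reached 0.633% at position 2 and 1.37% at position 3. Whether a mismatched first base can be listed at all was not tested, so the 0 at position 1 is not particular to His-GTG-2. With 990 reads, the lowest depth at position 1, a count of 0 allows a mismatch share of up to 0.303% (3 reads of the total), and the upper Wilson 95% bound is 0.387%. Both limits cover listed reads only and leave out the uncounted reads, 3400 in this library. His-GTG-3, the reference with G at position 16, was listed at position 1 only in WT 3, KO 1, KO 2 and KO 3, with 32, 45, 39 and 40 reads. It had 1 insertion, a thymidine in WT 3. Uncounted reads at its 5′ end were 54.1% of position 2 in WT 3 and 40.2, 38.7 and 57.01% in KO 1, KO 2 and KO 3, above the range of the other cytosolic references. WT 3 thus listed insertions on His-GTG-2 and left reads uncounted on His-GTG-3, which had too few reads for a test.

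Guanosine 34, the base that queuosine replaces, read as G in both genotypes. Pooled over His-GTG-2 and His-GTG-3, mismatches were 0 of 815, 925 and 1282 called bases in WT and 0 of 925, 0 of 1044 and 1 of 1116 in KO. The 1 mismatch is 0.0896% of KO 3, and the upper Wilson 95% bounds were 0.299 to 0.506% over the 6 libraries. Reads shared by both references enter this sum more than once. On His-GTG-2 alone the counts were 0 of 783, 873 and 1230 in WT and 0 of 847, 0 of 977 and 1 of 1039 in KO, with upper bounds of 0.311 to 0.543%. Between the groups the difference was 0.03 percentage points (exact two-sided permutation p = 1, adjusted over 5 tests 1). With 1 mismatched read in 1 library, every regrouping gives the same absolute difference. This p was therefore fixed beforehand and says nothing on genotype. Of other tRNAs whose first anticodon base can become queuosine, Asp-GTC gave mismatches of 0 to 0.231% over 1375 to 3178 bases per library, summed over its references. Asn-GTT gave 0 of 120 to 304 bases, with upper Wilson 95% bounds of 1.25 to 3.10%, so a share as low as that of His-GTG could not be told at this depth. Reads shared between copies may enter both sums more than once. Tyr-GTA and mitochondrial tRNA-His were not analysed here. An insertion of 3 bases at position 34 of His-GTG-2 was listed in 2 reads of WT 1 and 1 read of KO 3.

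His-GTG-2 consisted almost wholly of reads from its 5′ part, most of which ended between position 29 and the anticodon in every library. At position 29 the coverage was 6001, 5815 and 7299 in WT and 7072, 7057 and 7269 in KO. In WT 3 and the KO libraries the depth limit had been met upstream, so read counts from here on may be lowered. It was 4799, 4435 and 5091 in WT and 5357, 5245 and 5404 in KO at position 31. Position 32 kept 38.9, 38.7 and 45.4% of the coverage at position 29 in WT and 38.8, 40.8 and 41.4% in KO, so most of these reads ended at or before position 31. At guanosine 34 the coverage had dropped to 783, 873 and 1230 in WT and 847, 977 and 1042 in KO. Between positions 31 and 34, therefore, 83.7, 80.3 and 75.8% of the reads ended in WT and 84.2, 81.4 and 80.7% in KO, and the groups overlapped. The coverage left at position 34 was 14.97 ± 1.90% of position 29 in WT and 13.4 ± 1.24% in KO (SD, n = 3 each; exact two-sided permutation p = 0.4, adjusted over 5 tests 0.667). The lower end of the size selection, 30 bp, is close to the length at which these reads end.

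**Figure D3:**
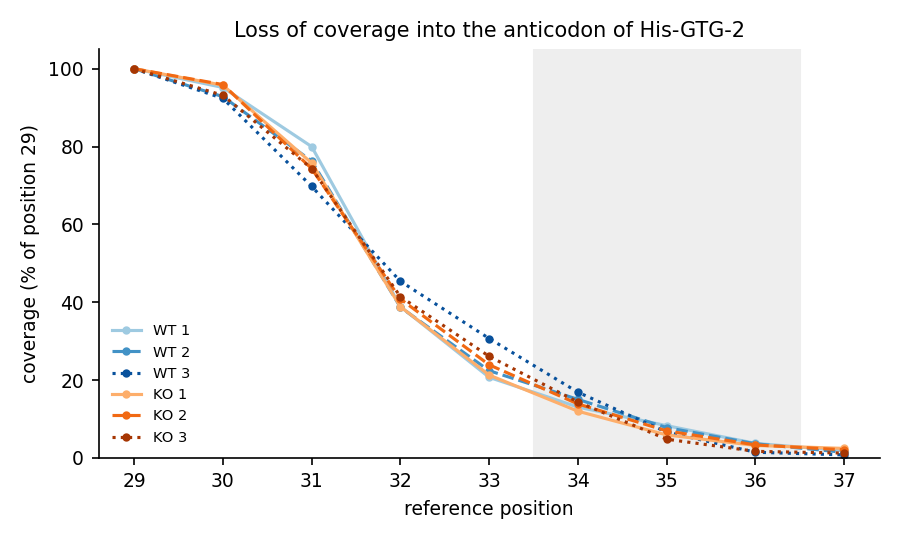
Coverage of His-GTG-2 from position 29 to 37 as a percentage of its coverage at position 29 (y axis), one line per library, with the anticodon shaded. All 6 lines fall together, from 69.7 to 80.0% at position 31 to 12.0 to 16.9% at position 34.

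The 3′ part was sparse. The highest coverage from position 38 on was 119, 111 and 71 reads in WT and 176, 174 and 118 in KO. The ratio of the highest coverage of the 5′ part (positions 1 to 33) to that of the 3′ part was 55.8, 58.6 and 113 in WT and 45.5, 46.0 and 67.9 in KO, with the depth limit lowering it in WT 3 and the KO libraries. His-GTG-3 had a far more even profile, with ratios of 2.34, 1.98 and 4.69 in WT and 3.29, 2.92 and 2.39 in KO. On the log2 scale the KO ratio differed from WT by -0.46 (SE 0.341, limma adjusted p = 0.653) for His-GTG-2 and by 0.02 (limma adjusted p = 0.992) for His-GTG-3. Neither was called, beside a background of 7.25% of 69 references. The value of His-GTG-2 depended on WT 3, without which it was -0.13 (limma adjusted p = 0.835).

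Within the 5′ part, some reads of His-GTG-2 began at position 13, in the D arm. They numbered 513 and 412 in WT 1 and WT 2 and 404 and 369 in KO 1 and KO 2, and 1 in each of WT 3 and KO 3, where the depth limit had been reached upstream. KO 1 and KO 2 reached the limit from positions 14 and 13 on, so their counts may be cut short, unlike those of WT 1 and WT 2. In the T arm, 11 of 33, 9 of 50 and 20 of 36 reads began at position 54 in WT, and 20 of 56 and 22 of 45 in KO 1 and KO 2. Of the 10 His-GTG stop sites that could be tested (5 on His-GTG-2, 3 on His-GTG-3 and 2 on His-GTG-1), 0 were called, beside a background of 0.384% of 1042 stop sites, and the smallest adjusted p of the quasi-binomial test was 0.656. None of the 10 passed 0.05 before adjustment either, as 7.39% of all stop sites did. Near the depth limit few new starts were listed also at positions 3 (1 in KO 3) and 4 (0 in WT 3 and 1 in KO 3) of His-GTG-2. The fitted dispersion (spread between libraries over that of read sampling) was 62.2 to 214 at positions 2, 3, 4 and 13 of His-GTG-2 and 2.22 to 4.01 at the other 6 sites, so at those 4 positions only very large differences could be called. The median difference was -0.73 points for these 10 sites and -0.16 points for all.

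**Figure D4:**
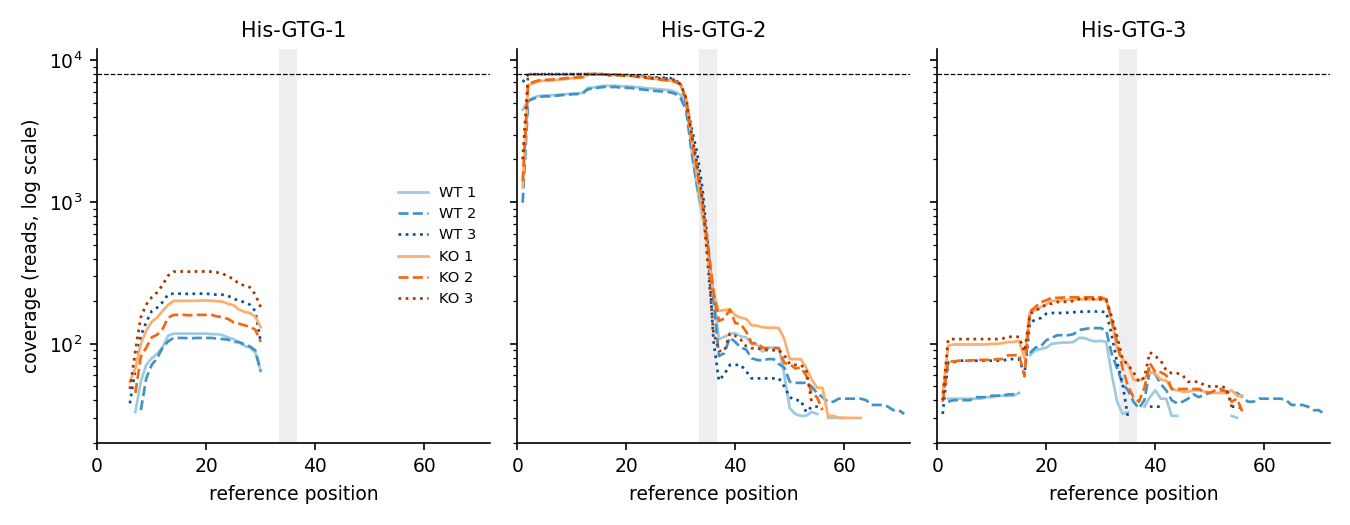
Coverage in reads (y axis, log scale) along each of the 3 His-GTG references (x axis, reference position), one line per library, with the depth limit of 8000 dashed and the anticodon shaded. His-GTG-2 has at most 71 to 176 reads per library from position 38 on, His-GTG-3 steps up after position 16, where it begins to share reads with His-GTG-2, and His-GTG-1 ends at position 30.

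Of the 167 positions listed in any library, 114 were listed in all 6 and 61 had at least 100 reads in all 6. A mismatch of 1% or more in at least 1 library was seen at 14 positions, 0 on His-GTG-1, 4 on His-GTG-2 and 10 on His-GTG-3. The only one with at least 100 reads in all 6 libraries and a pooled mismatch rate of at least 1%, as the test required, was the acceptor-stem guanosine at position 6 of His-GTG-2. Positions 26, 28 and 29 of His-GTG-3 had the depth but not the rate. It read as another base in 54 of 5675, 68 of 5582 and 101 of 8000 calls in WT and in 115 of 7231, 106 of 7315 and 85 of 7999 calls in KO. These are 0.952, 1.22 and 1.26% in WT and 1.59, 1.45 and 1.06% in KO, mostly A and C. The groups overlapped, and the means of 1.14 ± 0.168% and 1.37 ± 0.273% (SD, n = 3 each) were not told apart by the quasi-binomial test (adjusted p = 0.712). The background was 0% of 144 mismatch sites called, with 7 (4.86%) below 0.05 before adjustment.

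Guanosine 37, next to the anticodon and known as a methylated base, showed mismatches in some libraries of both genotypes. On His-GTG-2 it read as C in 11 of 55 calls in WT 3 and 2 of 171 in KO 1, and as A in 5 of 89 in KO 3. It had 0 mismatches of 108, 82 and 145 calls in WT 1, WT 2 and KO 2. High and low libraries were thus found in each group, and the coverage was too low for a test. His-GTG-3, which shares these reads in part, had mismatches there in 2 of 55 calls in KO 1 and 5 of 54 in KO 3.

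The adenosine at position 57, which ends the TTCGA stretch of the T arm and is a known methylation site, was read in few molecules. In WT 2, 6 of 39 calls differed from A (2 T and 4 G), and 0 of 30 in WT 1 and 0 of 31 in KO 1 did, while the other 3 libraries had fewer than 30 reads. His-GTG-3 listed the same 6 of 39 in WT 2. At position 55 of His-GTG-2, 1 of 49 calls differed in KO 1. The remaining His-GTG-3 positions with 1% or more were 5, 6, 12, 16, 20, 26, 28 and 29, each with 3 mismatched reads or fewer in a library. No His-GTG position qualified for the deletion test, against 60 deletion sites tested over all references, of which 0% were called and 13.3% had an unadjusted p under 0.05.

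The abundance of the references was taken from their highest coverage. It was 6639, 6506 and 8012 reads in WT and 8002, 8002 and 8014 in KO for His-GTG-2, 118, 110 and 226 in WT and 202, 160 and 324 in KO for His-GTG-1, and 110, 129 and 169 in WT and 207, 213 and 208 in KO for His-GTG-3. The values of His-GTG-3 lay at positions 24 to 30, where it shares reads with His-GTG-2. His-GTG-2 ranked 9 of 145 references by its share of base calls, against 117 for His-GTG-1 and 109 for His-GTG-3. Of the 145 references, 128 stayed below the depth limit, and ranks among the rest, His-GTG-2 included, depend on that limit. With edgeR's quasi-likelihood test, none of the 3 was called, beside a background of 22.8% of 145 references. The log2 fold change of KO over WT was -0.30 (SE 0.099, adjusted p = 0.0548) for His-GTG-2, 0.09 (SE 0.338, adjusted p = 0.881) for His-GTG-1 and 0.13 (SE 0.225, adjusted p = 0.713) for His-GTG-3. The value of His-GTG-2 is bounded by the depth limit in 4 of its 6 libraries, WT 3 and all KO libraries, so reads above the limit are missing mostly from KO. The part of the depth limit in this fold change was not tested. His-GTG-2 was called without WT 2 (edgeR adjusted p = 0.0101), without KO 2 (edgeR adjusted p = 0.0278) and with a replicate block (-0.30, edgeR adjusted p = 0.0469). It was also called with upper-quartile scaling (-0.78, edgeR adjusted p = 0.000651), under which the median of all references was -0.49. It was not called with DESeq2 (-0.34, DESeq2 adjusted p = 0.131), without WT 3 (-0.20, edgeR adjusted p = 0.132) or from the median coverage per position (-0.09, edgeR adjusted p = 0.966). In bulk tissue, fewer cells of a type and less RNA per cell cannot be told apart.

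As a share of all base calls, His-GTG-2 made up 3.14, 2.96 and 3.94% in WT and 2.80, 2.91 and 2.75% in KO. All KO values lay below all WT values, as they did for 9.66% of 145 references. The means of 3.35 ± 0.525% and 2.82 ± 0.0854% (SD, n = 3 each) gave an exact two-sided permutation p of 0.1, the smallest possible, and 0.5 adjusted over 5 tests. KO libraries held more base calls in all, and His-GTG-2 was at the depth limit in 3 of 3 of them against 1 of 3 WT libraries. The part of the depth limit in this difference was not tested.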

How the data were processed

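Small RNA of mouse brain was sequenced from 3 WT and 3 TRMT1L KO samples. Per the file headers, the deposited values are raw counts per reference position (coverage, base calls, stops, deletions, insertions, with inserted bases as text) and mean and median base quality scores. The submitters' processing notes name GATK 3.5; the aligner, reference set and build are not given in the sources used here. A deposited stop at a position counted reads starting 1 position earlier (it equalled the coverage of position 1 in 527 of 527 cases), so stops were moved by 1 and position 1 was left out of the stop tests.

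Sites with at least 100 reads in all 6 libraries and a pooled rate of at least 1% were tested across all references by a quasi-binomial model with limma 3.58.1 moderation (R 4.3.3), abundance by edgeR 4.0.16 (TMM, filterByExpr; DESeq2 1.42.0 as an alternative) and coverage ratios by limma, with Benjamini-Hochberg adjustment at 0.05. Single values used exact permutation tests. The functions were tested on simulated data. Wilson intervals and the 3-count floor cover counting error only. His-GTG positions with a mismatch of 1% or more, positions 1 to 3, position 34 and the 5′ and 3′ parts were named by rule; members and lists were chosen with earlier results of these data known. Over all tested sites and reference abundances, deviations of same-numbered WT and KO libraries correlated by 0.132 at most, so no pairing was used. On His-GTG-2, however, WT 3 and KO 3 alone reached the depth limit from position 5 on.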

Additional observations from a re-analysis of the deposited data

How the results depend on the processing

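For the 6 counts of called His-GTG members, 76 alternatives were run, of which 62 tested at least 1 member, and 57 of those 62 gave the same count as the main analysis. In the other 14 (12 for deletions and 2 for mismatches) no member was left to test. Stop sites were called 0 times in 14 alternatives, 5′ to 3′ ratios 0 times in 9 and the 1 mismatch site 0 times in the 11 that kept it. Called insertion sites ranged from 0 to 1 with a library left out (1 without WT 2), and called references for abundance from 0 to 1 (1, His-GTG-2, without WT 2 and without KO 2). Abundance also gave 1 called reference with upper-quartile scaling and 1 with the replicate block. In the block fit His-GTG-2 had a log2 fold change of -0.30 and an edgeR adjusted p of 0.0469, and over its 14 settings its adjusted p ran from 0.000651 to 0.966. The replicate block left the position 1 difference at -47.6 points and the guanosine 34 difference at 0.03 points and changed no other call. For the 5′ to 3′ ratio of His-GTG-2 it lowered the SE from 0.341 to 0.130. The unadjusted limma p went from 0.235 to 0.0355 (adjusted 0.245). For His-GTG-3 the SE of the ratio rose from 0.363 to 0.403. Over all sites, same-numbered libraries had correlated deviations of 0.0411 to 0.0972 at stop sites and -0.110 to 0.0248 at mismatch sites. For abundance over all references the correlations were 0.0401 to 0.0964, so the numbers do not pair the libraries across the whole table. The position 1 difference ranged from -71.6 to -34.5 points with a library left out; counting uncounted reads as inserted, an alternative chosen after seeing the data, turned it to 0.64 points over position 2 (-3.27 without KO 3, at the depth limit). The guanosine 34 difference ranged from 0 (without KO 3) to 0.045 points. The sign of the abundance change was positive in 10 of 15 settings for His-GTG-1 and in 12 of 15 for His-GTG-3. The 5′ to 3′ ratio difference was positive in 7 of 10 settings for His-GTG-3 (negative without WT 1, WT 2 or KO 1) and negative in all 9 for His-GTG-2. Depth limits the 3′ part and His-GTG-3, and the cap of 8000 reads limits the 5′ part.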
